A study of Mus musculus with 60 samples.

Results

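The 55 genes described here encode splicing factors and the protein parts of small nuclear ribonucleoproteins (snRNPs), measured as mRNA in the mouse hippocampus. They were chosen by symbol alone, as the Srsf, Hnrnp, Snrp and numbered Lsm genes present in all 10 of the authors' deposited tables, without the imprinted gene Snrpn, and they make up 55 of 13393 genes found in all 10 tables. By family they were 11 SR protein genes, 20 hnRNP genes, 11 snRNP protein genes and 13 Lsm genes. The study sequenced poly(A)-selected RNA of whole, dorsal and ventral hippocampus 45 min after a stress treatment. The treated groups were labelled Handling, Restraint and Swim, and the untreated mice Homecage, for each tissue. All mice were wild type C57BL/6 animals of postnatal day 105, and the labels give no length or strength of a treatment. Each of the 12 groups had 5 libraries, and the series record speaks of 5 mice per condition. If a dorsal and a ventral piece shared a mouse, no label records it. The deposited tables hold a mean estimated count per group, a fold change and p-values, but no value per library, so every value below is a mean over 5 libraries and the spread between libraries is seen only through the deposited p.

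Splicing removes introns from a pre-mRNA and is carried out by the spliceosome, which is built from small nuclear RNAs wrapped in proteins. The Sm ring (Snrpb, Snrpd, Snrpe, Snrpf and Snrpg products) sits on the U1, U2, U4 and U5 RNAs, while the related Lsm ring that holds Lsm8 sits on U6 and the one that holds Lsm1 takes part in cytoplasmic mRNA decay. SR proteins mostly promote the use of nearby exons, hnRNP proteins often counteract them, and the CLK and SRPK kinases phosphorylate SR proteins. In neurons this machinery sets which isoforms of channel, receptor and adhesion genes are made, and activity can change it quickly.

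Group means summed over all genes to between 19918572 and 25007858 estimated counts. These means are not scaled between groups, so the authors' fold change need not equal their ratio. The treatment labels were checked with Fos, an immediate early gene, and Sgk1, a corticosteroid-induced kinase, both higher than in Homecage mice in all 9 treatment tables with log2 fold changes of 1.35 to 2.06 and 0.36 to 1.00. Hippocampal neuron markers were detected in every group, with 12 listed markers summing to 6646 to 9253 counts per 1000000 (CPM) and none at 0. Choroid plexus markers stood apart in ventral Handling, where 12 of 12 were higher and their summed mean count was 32660 against 1566 in Homecage, and in dorsal Restraint, where 4 of 8 were higher and the sum was 31729 against 1949. Log2 fold change moved with the GC content of the transcripts, with Spearman rho over all genes between -0.60 in dorsal Swim and 0.70 in ventral Swim. In bulk tissue, fewer cells of a type and less RNA per cell cannot be told apart.

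The genes spanned a wide range of levels and varied little among groups. In CPM per kilobase of median transcript length, Hnrnpk, a poly(C)-binding hnRNP, was highest at 394 on average over the 12 group means. Hnrnpa3 and Hnrnpa2b1, RNA-binding proteins that also act in mRNA transport, followed at 264 and 241. Among SR genes Srsf5 stood at 178, Srsf11 at 102 and Srsf2 at 66.7, with Srsf10 at 22.7 and Srsf12 at 11.0 the lowest. The snRNP genes were less abundant: the core Sm genes Snrpb and Snrpd1 had 42.0 and 36.9, the U1 gene Snrpa had 31.3, and the core genes Snrpf and Snrpg had 11.3 and 9.93. In the Lsm family, Lsm14a and Lsm14b, which act in translational repression and not in the U6 ring, had 48.2 and 31.1, Lsm8 had 27.7, and the ring genes Lsm2 and Lsm7 had 5.24 and 4.26. The lowest hnRNP genes were Hnrnpll, a regulator known from T cells, at 18.9, and Hnrnph3 at 18.0. The highest group mean exceeded the lowest by a median ratio of 1.26 for these genes and 1.31 for all 13393 genes. A ratio above 1.5 was seen for 3 of the 55, namely Lsm7 at 5.25, Lsm5 at 1.61 and Lsm4 at 1.55, against 22.4% of all genes. Ratios of these levels carry no test. The summed counts of 28 of the 55 genes lay more than 0.1 from a whole number in at least 1 group, as is seen where an estimate splits reads between features.

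Whole hippocampus did not lie between its dorsal and ventral parts for many of these genes. In Homecage mice 18 of the 55 had a whole-hippocampus mean more than 10% above both the dorsal and the ventral mean in CPM, and 0 had one more than 10% below both. Of all 13393 genes 1087 (8.12%) were above and 1408 below. The counts above were 19 in Handling, 22 in Restraint and 16 in Swim mice, with 2, 1 and 3 below. Of all genes 1608, 1412 and 1711 were above in these conditions, and 2402, 1549 and 2404 below. The 18 genes included Hnrnpu, with 269 CPM in whole, 208 in dorsal and 214 in ventral Homecage hippocampus, and Hnrnpa0, which binds AU-rich elements, with 66.4 in whole, 58.4 in dorsal and 47.8 in ventral. They also included Srsf1, Srsf2, Srsf3, Srsf6, Srsf7, Srsf10 and Srsf11, which is 7 of 11 SR genes. No deposited table sets whole against dorsal or ventral tissue, the tables were scaled separately, and this difference was not tested.

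**Figure D1:**
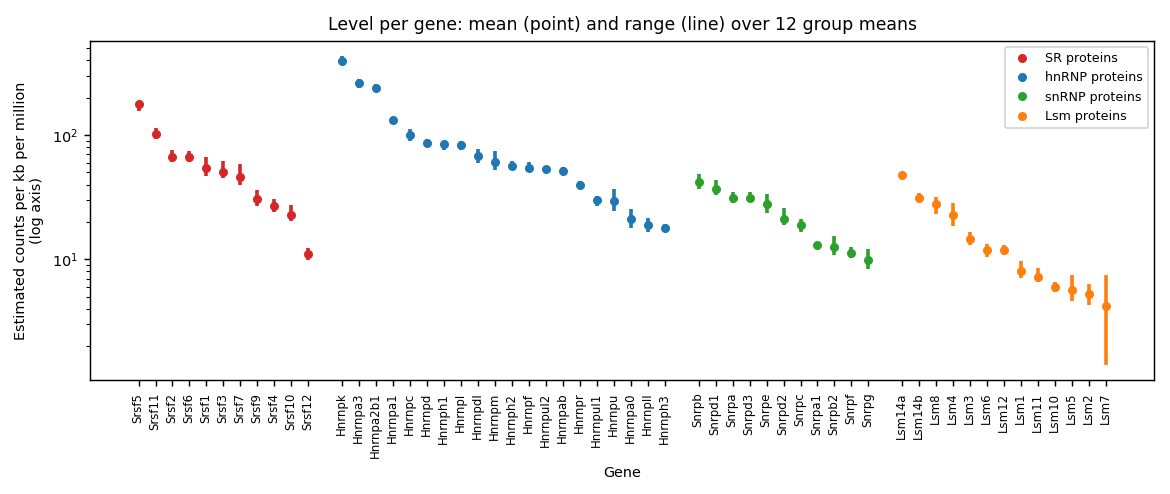
Level of each of the 55 genes in CPM per kilobase (log axis), by family, as the mean (point) and range (line) over the 12 group means. Most lines are short beside the differences between genes, and Lsm7 at the far right has the longest, with a highest group 5.25 times its lowest.

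Few of these mRNAs differed from Homecage after Handling, Restraint or Swim. In the authors' deposited tables a call was an adjusted p (Benjamini-Hochberg over the whole table) under 0.05. In whole hippocampus, 1 of 55 was called after Handling, 0 after Restraint and 0 after Swim, where 0.395%, 0.541% and 0.395% of all genes tested were called. In dorsal hippocampus 0 were called after Handling, Restraint or Swim, against 0.125%, 0.616% and 0.447% of all genes. In ventral hippocampus 0 were called after Handling and after Restraint, against 0.856% and 2.39%, and 6 after Swim, against 6.94%. The 6 genes of ventral Swim are 10.9% of the 55, near that background, and the other counts were 0 or 1. At an unadjusted p under 0.05 there were 5, 0 and 2 genes in whole, 2, 4 and 4 in dorsal and 2, 2 and 12 in ventral hippocampus after Handling, Restraint and Swim. The same share over all genes was 5.06%, 3.92% and 5.20% in whole, 2.84%, 9.60% and 11.2% in dorsal, and 7.28%, 12.7% and 24.0% in ventral hippocampus. Log2 fold changes lay within 0.2 of 0 for 49 to 55 of the 55 genes in each of the 9 tables, and for 84.4% to 94.5% of all genes. The median log2 fold change of the 55 was between -0.05 and 0.02 in each, and that of all genes between -0.0064 and 0.0068.

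**Figure D2:**
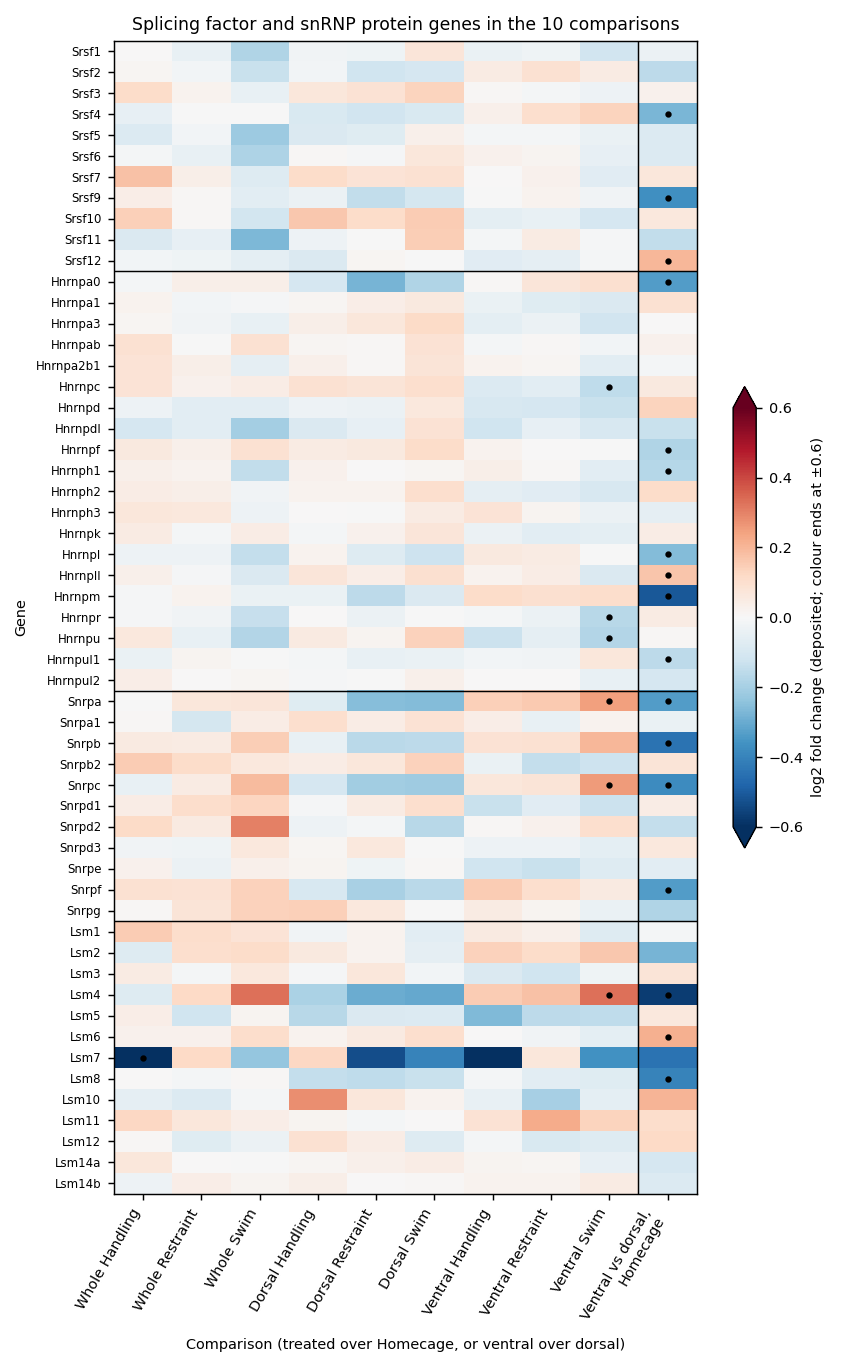
Deposited log2 fold change of the 55 genes (rows, by family from the top: SR, hnRNP, snRNP, Lsm) in the 10 comparisons (columns), with black dots at adjusted p under 0.05. The treatment columns are pale with 7 dots in all, 1 for Lsm7 in whole Handling and 6 in ventral Swim, and the ventral over dorsal column on the right holds 17.

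At the ends of the treatment tables stood genes of all 4 families, and none of those named in the next sentences was called. After Handling in whole hippocampus Srsf7, an SR protein with a zinc knuckle, had 1947 estimated counts in Handling, against 1799 in Homecage, with a log2 fold change of 0.17 and an adjusted p of 0.183. In dorsal hippocampus Lsm10, a part of the U7 particle that processes histone mRNA, had 129 in Handling, against 103 in Homecage, with 0.28 and an adjusted p of 1.00. Both lie within 0.3 of 0 on the log2 scale. After dorsal Restraint, Lsm4 had 301 counts in Restraint, against 375 in Homecage, with -0.30 and an adjusted p of 0.469. Hnrnpa0 had 1104 in Restraint, against 1364 in Homecage, with -0.28 and an adjusted p of 0.319. After ventral Restraint, Lsm11, the partner of Lsm10 in the U7 ring, had 1373 in Restraint, against 1182 in Homecage, with 0.22 and an implied standard error (the log2 fold change over the normal quantile of its p) of 0.09. In ventral Handling Lsm5 had 46.4 in Handling, against 58.2 in Homecage, with -0.27 and an implied error of 0.21, and this low count goes with a wide error.

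Lsm7, a subunit shared by the nuclear and the cytoplasmic Lsm ring, was the gene called after Handling. In whole hippocampus its mean estimated count was 46.7 in Handling mice, 122 in Restraint mice and 99.8 in Swim mice, against 114 in Homecage mice. Handling thus gave the lowest of the 4 whole-hippocampus means, while the other 2 treatments lay near Homecage. The authors' deposited table gave a log2 fold change of -1.22 for whole Handling, with an implied standard error of 0.14 and an adjusted p of 3.6e-15. Only 0.0293% of all genes in that table were called lower, 4 genes with Lsm7 among them. In ventral hippocampus the mean was 27.6 in Handling, 72.9 in Restraint and 54.5 in Swim mice, against 70.0 in Homecage mice. The ventral Handling log2 fold change of -1.28, with an implied error of 0.38 and an adjusted p of 0.074, missed the threshold in the authors' deposited table. In dorsal hippocampus the order was another one: 99.8 in Handling, 59.3 in Restraint and 68.7 in Swim mice, against 86.1 in Homecage mice. There the log2 fold change for Handling was 0.12 with an implied error of 0.32. Tests of the difference between tissues did not pass. The whole minus dorsal difference of -1.34 had an error of 0.35 and an adjusted p of 0.733, and the ventral minus dorsal difference of -1.40 had an error of 0.50 and an adjusted p of 0.998.

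Several measurements bear on how Lsm7 may be read. In CPM per kilobase averaged over the 12 groups, which include its low groups, it had the lowest level of the 55 genes. In whole Homecage hippocampus its mean count of 114 was above those of Lsm5 (62.4) and Lsm10 (103). Its summed counts lay more than 0.1 from a whole number in at least 1 group. It lies on chromosome 10 (80852821 to 80855209, minus strand, GRCm38 in GENCODE M21), and the gene Sppl2b, an intramembrane protease, starts 66 bases from its start on the other strand. Sppl2b, named after its values were seen, had 534 estimated counts in whole Handling, against 594 in Homecage, with a log2 fold change of -0.09 and an adjusted p of 0.998 in the authors' deposited table. Lsm1 to Lsm6 and Lsm8, the other subunits of the 2 rings, had no call after Handling in any tissue. Of all genes 0.395% were called after Handling in whole, 0.125% in dorsal and 0.856% in ventral hippocampus. Choroid plexus markers were higher in both Handling tables where Lsm7 was low: 1 of 6 in whole Handling, with a summed mean count of 2264 against 1046 in Homecage, and 12 of 12 in ventral Handling. They were also higher in tables where Lsm7 was not called: 4 of 8 in dorsal Restraint (Lsm7 -0.53, adjusted p 0.662), 2 of 9 in whole Restraint (Lsm7 0.12) and 1 of 6 in ventral Restraint (Lsm7 0.07). In dorsal Handling no choroid plexus marker was called, and their sum was 3384 against 1949 in Homecage (Lsm7 0.12). After Swim none was called in any tissue. Their sum was 1805 against 1059 in whole (Lsm7 -0.23) and 2721 against 1936 in dorsal hippocampus (Lsm7 -0.40). In ventral Swim it was 1887 against 1482 (Lsm7 -0.36). The part of these markers in the Lsm7 values was not tested.

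**Figure D3:**
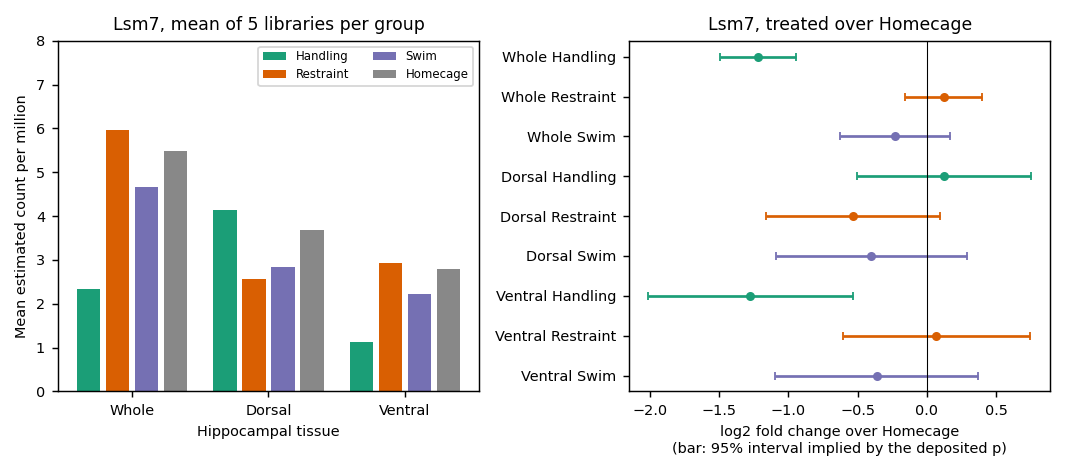
Left, mean Lsm7 level in CPM in the 12 groups, with Homecage as the last bar of each tissue; right, log2 fold change over Homecage with the 95% interval implied by the deposited p. The Handling bars are the lowest in whole and ventral hippocampus and the highest in dorsal hippocampus, and the dorsal and ventral intervals are the widest.

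In whole hippocampus after Swim the SR genes and the snRNP genes lay on opposite sides of 0. All 11 SR genes were below 0, from -0.27 for Srsf11 to -0.0021, with a median of -0.11, while all 11 snRNP genes were above 0, from 0.03 to 0.30 for Snrpd2, a core Sm gene, with a median of 0.13. In the whole Swim comparison 51.4% of all genes were above 0. The other tissues did not show this split. In dorsal Swim 7 of 11 SR and 4 of 11 snRNP genes were above 0, beside 51.8% of all genes. In ventral Swim 2 of 11 SR and 6 of 11 snRNP genes were above 0, beside 48.4% of all genes. The summed level was 1194 CPM in Swim mice, against 1349 in Homecage mice, for the SR genes. For the snRNP genes it was 314 in Swim mice, against 289 in Homecage mice. None of these SR and snRNP genes was called, with an adjusted p of 0.819 for Srsf11, Srsf5 (-0.22) and Snrpd2 alike in the authors' deposited table. At an unadjusted p under 0.05 there were 0 of 11 SR and 1 of 11 snRNP genes, beside 5.20% of all genes. The SR transcripts were longer, with a median length of 1884 bases against 1161 for the snRNP genes, and log2 fold change fell with length in that table (Spearman rho -0.30 over all genes and -0.43 over the 55). With the length trend subtracted, 0 of 11 SR genes and 10 of 11 snRNP genes were above 0, with medians of -0.12 and 0.07. Of the marker lists, the 5 blood genes summed to 8152 mean counts in whole Swim, against 4127 in Homecage, and the 8 oligodendrocyte genes to 91145 in Swim, against 72446 in Homecage, with none of either list called. All 8 microglia markers were above 0, with a median log2 fold change of 0.17, and all 8 endothelial markers below 0, with a median of -0.18, none of them called. Whether these markers bear on the SR and snRNP values was not tested.

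Ventral hippocampus after Swim held the other 6 calls, 3 higher and 3 lower. Higher were Lsm4, a subunit of both Lsm rings, and the genes Snrpa and Snrpc of U1, the particle that recognises the 5' splice site. Lower were Hnrnpu, a large nuclear-matrix RNA-binding protein, Hnrnpr, and Hnrnpc, which binds uridine tracts. These are the middle 30 codons of the 6 coding sequences, shown because the direction of change went with base composition. They come from GENCODE M21 transcripts on GRCm38, 5' to 3', with capitals at each G or C in the third position of a codon.
Lsm4: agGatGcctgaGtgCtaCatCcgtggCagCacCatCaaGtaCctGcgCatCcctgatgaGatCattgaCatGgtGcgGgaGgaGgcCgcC
Snrpa: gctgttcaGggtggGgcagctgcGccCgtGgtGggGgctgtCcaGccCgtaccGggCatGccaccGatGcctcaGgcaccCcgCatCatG
Snrpc: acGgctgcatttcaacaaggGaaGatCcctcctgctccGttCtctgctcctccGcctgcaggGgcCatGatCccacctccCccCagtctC
Hnrnpu: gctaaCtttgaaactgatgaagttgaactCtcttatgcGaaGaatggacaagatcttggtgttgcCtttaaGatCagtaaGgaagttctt
Hnrnpc: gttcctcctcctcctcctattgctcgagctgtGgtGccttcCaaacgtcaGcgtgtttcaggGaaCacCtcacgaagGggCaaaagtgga
Hnrnpr: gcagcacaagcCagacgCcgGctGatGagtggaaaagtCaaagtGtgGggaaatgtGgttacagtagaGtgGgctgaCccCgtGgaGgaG

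The third codon position was G or C in 25 of these 30 codons for Lsm4, 20 for Snrpa and 14 for Snrpc, the higher genes. It was G or C in 8 codons for Hnrnpu, 9 for Hnrnpc and 16 for Hnrnpr, the lower genes, so the windows of Snrpc and Hnrnpr overlap in this count. Over the whole coding sequence the share was 76.3% for Lsm4, 73.3% for Snrpa and 59.6% for Snrpc, against 50.1% for Hnrnpu, 45.5% for Hnrnpc and 42.5% for Hnrnpr. The GC content of their transcripts was 53.1% to 60.8% for the 3 higher and 40.9% to 43.1% for the 3 lower genes, with no overlap. Over all genes of that comparison log2 fold change also rose with GC content, with a Spearman rho of 0.70. Lsm7, which was not called, went the other way, with a GC content of 54.8% and a log2 fold change of -0.36.

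Lsm4 had a mean of 344 estimated counts in Swim ventral hippocampus, against 279 in Homecage, with a log2 fold change of 0.33, an implied error of 0.11 and an adjusted p of 0.0445 in the authors' deposited table. Snrpa had 1091 in Swim, against 939 in Homecage, with a log2 fold change of 0.25 and an adjusted p of 0.0333. Snrpc had 454 in Swim, against 387 in Homecage, with a log2 fold change of 0.26 and an adjusted p of 0.0421. All of the higher genes therefore rose by less than a log2 value of 0.4, and their p-values lay close to the threshold. Hnrnpu fell to 4633 in Swim, against 5356 in Homecage, a log2 fold change of -0.18 with an adjusted p of 0.0199. Hnrnpr had 2276 in Swim, against 2622 in Homecage, with -0.17 and an adjusted p of 0.0127, and Hnrnpc had 3713 in Swim, against 4227 in Homecage, with -0.15 and an adjusted p of 0.0301. By family, 3 of 20 hnRNP genes fell and 0 rose, 2 of 11 snRNP genes rose and 0 fell, 1 of 13 Lsm genes rose and 0 fell, and 0 of 11 SR genes were called. Of all genes, 4.65% rose and 2.29% fell. The gene furthest below 0 was Lsm7, with 54.5 estimated counts in Swim, against 70.0 in Homecage, a log2 fold change of -0.36 and an adjusted p of 0.585.

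Across the 55 genes, log2 fold change in ventral Swim rose with transcript GC content, with a Spearman rho of 0.69, beside 0.70 over all genes in the same table. In dorsal Swim the relation ran the other way, with -0.64 over the 55 and -0.60 over all genes, and in whole Swim it was 0.30 in both. These correlations are across genes of the same libraries, and genes are not independent replicates. With the GC trend of all genes subtracted, 0 of the 55 were called in ventral Swim, where 0.845% of all genes were, and Snrpc came nearest with 0.22 and an adjusted p of 0.383. With the length trend subtracted, Lsm4 and Snrpc lost their calls. Of the marker lists, 2 of 7 thalamus markers were lower in ventral Swim, and 2 of 12 hippocampal neuron, 1 of 8 oligodendrocyte and 1 of 8 microglia markers were higher. The part of cell composition in the GC trend was not tested.

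**Figure D4:**
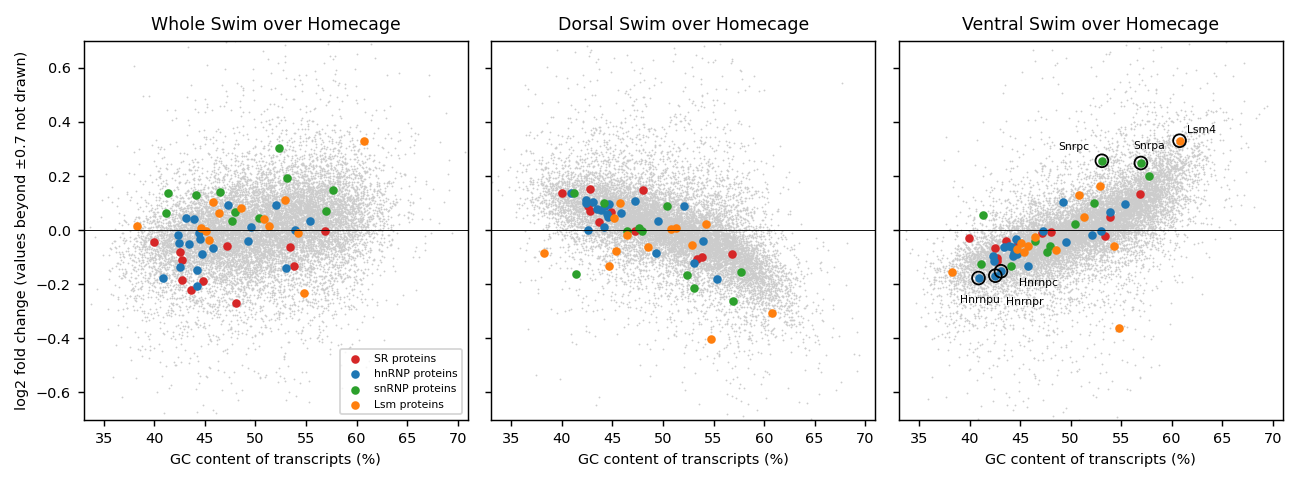
Log2 fold change of Swim over Homecage against transcript GC content in whole, dorsal and ventral hippocampus, for all genes (grey) and the 55 genes by family (colour), with called genes ringed. The cloud slopes down in dorsal and up in ventral hippocampus (rho -0.60 and 0.70 over all genes), the coloured points lie along it, and of the 6 ringed genes the 3 with a GC content of 53.1% or more lie above 0 and the 3 with 43.1% or less below it.

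The response to Swim differed between ventral and dorsal hippocampus for 4 of the 55 genes, where 10.2% of all genes differed. Lsm4 had a log2 fold change of 0.33 in ventral and -0.31 in dorsal hippocampus, a difference of 0.64 with an error of 0.19 and an adjusted p of 0.0145. Snrpa had 0.25 in ventral and -0.26 in dorsal, a difference of 0.51 with an error of 0.13 and an adjusted p of 0.0062. Snrpc had 0.26 in ventral and -0.21 in dorsal, a difference of 0.47 with an error of 0.14 and an adjusted p of 0.0174. Hnrnpu went the other way, with -0.18 in ventral and 0.14 in dorsal, a difference of -0.31 with an error of 0.10 and an adjusted p of 0.0305. None of the 4 was called in the dorsal table by itself. In CPM, Snrpa had 44.5 in ventral Swim and 37.6 in ventral Homecage mice, and 38.7 in dorsal Swim and 46.0 in dorsal Homecage mice. Its order between the regions was thus opposite in Swim and Homecage mice. With the GC trends subtracted, 0 of the 55 differed. In the other 8 comparisons of a treatment between tissues 0 of the 55 were called. Of all genes, 1.98% were called for Restraint in ventral minus dorsal, 0.0890% for Handling in ventral minus dorsal, 0.0516% for Handling and 0.0221% for Restraint in whole minus ventral, and 0 in the other 4. At an unadjusted p under 0.05 there were 2, 1 and 3 of the 55 for Handling in ventral minus dorsal, whole minus dorsal and whole minus ventral, beside 2.49%, 0.609% and 3.69% of all genes. There were 8, 4 and 1 for Restraint in the same order, beside 13.0%, 6.15% and 4.35%, and 17, 10 and 2 for Swim, beside 27.3%, 10.1% and 6.93%.

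The regions differed in untreated mice. In ventral against dorsal hippocampus of Homecage mice, 17 of the 55 genes were called, 3 higher and 14 lower in ventral, where 38.4% of all genes were called, 18.4% higher and 20.0% lower. At an unadjusted p under 0.05 there were 23 of the 55 genes, or 41.8%, beside 46.4% of all genes. The median log2 fold change was -0.05 for the 55 genes and -0.01 for all genes. The levels that follow are CPM from the group means, and the fold changes, scaled by the authors, are from their deposited table.

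The snRNP family had 4 of 11 genes lower in ventral hippocampus and 0 higher, where 20.0% of all genes were lower and 18.4% higher. Snrpb, a core Sm gene, had 42.7 CPM in ventral and 56.2 in dorsal Homecage hippocampus. Its log2 fold change was -0.44, with an adjusted p of 3.8e-04. Snrpc had 15.5 in ventral and 19.6 in dorsal (-0.38), Snrpa 37.6 in ventral and 46.0 in dorsal (-0.34), and the core gene Snrpf 8.87 in ventral and 10.8 in dorsal (-0.33). Their adjusted p-values were between 0.0033 and 0.0067. In the Lsm family 2 of 13 were lower and 1 was higher. Lsm4 had 11.2 in ventral and 16.1 in dorsal hippocampus, a log2 fold change of -0.57 with an adjusted p of 6.4e-04, the lowest of the 55. Lsm8, the subunit that marks the nuclear U6 ring, had 16.1 in ventral and 20.6 in dorsal, with -0.40 and an adjusted p of 8.6e-07. Lsm6, found in both rings, was higher, with 26.1 in ventral and 21.9 in dorsal, a log2 fold change of 0.21 and an adjusted p of 0.0091. Subunits of the U6 ring were thus called in both directions.

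Of the hnRNP genes 6 of 20 were lower in ventral hippocampus and 1 was higher, beside 20.0% and 18.4% of all genes. Hnrnpm, a splicing regulator of many alternative exons, had 93.6 CPM in ventral and 129.5 in dorsal hippocampus, with a log2 fold change of -0.51, an implied error of 0.07 and an adjusted p of 4.4e-11, the smallest p of the 55. Hnrnpl, which binds CA repeats, had 163 in ventral and 189 in dorsal, with -0.26 and an adjusted p of 4.2e-05. Its relative Hnrnpll was higher, with 58.3 in ventral and 50.6 in dorsal, 0.17 and an adjusted p of 0.0229. The other 4 were Hnrnpa0 at -0.33, Hnrnpf at -0.18, Hnrnph1 at -0.17 and Hnrnpul1 at -0.16. Of the SR genes, Srsf9 had 27.8 in ventral and 34.8 in dorsal, with -0.37 and an adjusted p of 2.1e-05, and Srsf4 had 58.6 in ventral and 68.8 in dorsal, with -0.27 and 0.0026. Srsf12, an SR protein with a repressive action on splicing in vitro, had 23.1 in ventral and 19.6 in dorsal, with 0.20 and 0.0333. The abundant Hnrnpk, Hnrnpa3, Hnrnpa2b1, Srsf5 and Srsf11 were not called.

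Of these 17 genes 9 kept their call with the GC trend of all genes subtracted, namely Hnrnpf, Hnrnph1, Hnrnpl, Hnrnpm, Lsm8, Snrpb, Snrpc, Snrpf and Srsf9. All 3 higher genes lost it, as did Lsm4, Snrpa, Hnrnpa0, Hnrnpul1 and Srsf4. Hnrnpdl, Lsm14a and Srsf11 gained a call, which gives 12 genes, 0 higher and 12 lower, where 16.9% of all genes were called higher and 14.8% lower. Cell type markers differed between the regions as well. All 8 oligodendrocyte markers were lower in ventral hippocampus, with a summed level of 3050 CPM against 4538 in dorsal, as were 6 of 8 microglia markers. Of 12 hippocampal neuron markers 9 were lower and 1 was higher (6646 in ventral against 9123 in dorsal), and of 7 thalamus markers 4 were higher and 1 was lower (153 in ventral against 98.9 in dorsal). The part of cell composition in these gene differences was not tested.

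The same regional contrast can be read in treated mice from the group means, which share no library with the Homecage ones but carry no test. The 17 genes were picked on the Homecage libraries. Their median log2 ratio of ventral to dorsal levels in CPM was -0.16 in Handling, -0.07 in Restraint and -0.02 in Swim mice, against -0.29 in Homecage mice. The sign was that of Homecage in 17, 14 and 14 of 17, where all genes called in Homecage kept theirs in 96.8%, 91.7% and 83.8%. The ratio was smaller in size than in Homecage for 14, 15 and 15 of 17, and for 3770, 4118 and 3965 of 5090 among all genes called in Homecage. Hnrnpm stayed lower in ventral hippocampus in each treatment, at -0.31, -0.22 and -0.29 against -0.47 in Homecage. Lsm8 did so too, at -0.23, -0.28 and -0.31 against -0.36 in Homecage. Lsm4 had -0.18 in Handling, -0.07 in Restraint and 0.09 in Swim, against -0.52 in Homecage, and Snrpa had -0.07, 0.11 and 0.20, against -0.29 in Homecage. With the GC trend of all genes subtracted, Lsm4 was at -0.04 in Swim and -0.26 in Homecage, so that its sign was then the same in both. Snrpa was at 0.13 in Swim and -0.16 in Homecage. The median of the 17 genes was -0.08 in Swim and -0.20 in Homecage. Lsm4, Snrpa and Snrpc were lower in ventral than dorsal Homecage hippocampus and higher in ventral Swim than ventral Homecage hippocampus, and both comparisons use the same ventral Homecage libraries. Ventral Homecage had the lowest of the 12 group levels for all 3 genes.

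**Figure D5:**
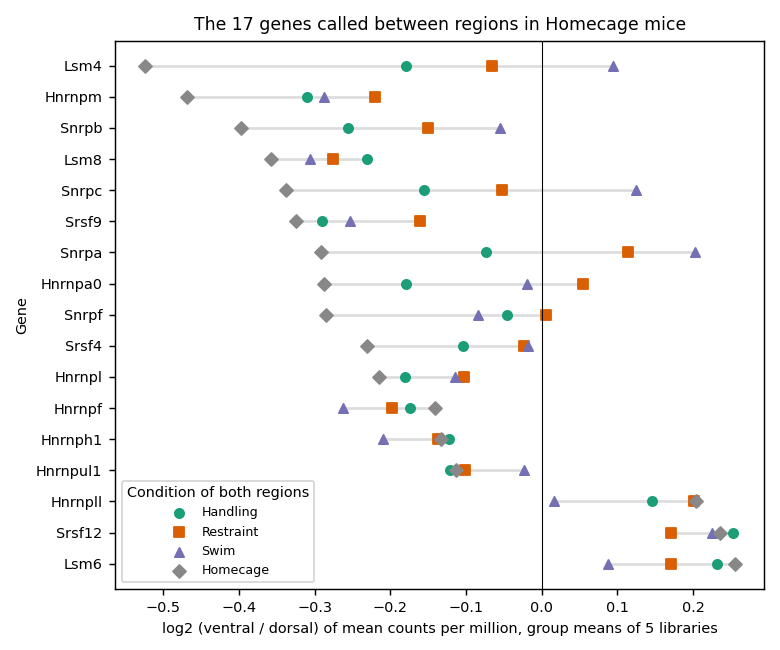
Log2 ratio of ventral to dorsal mean CPM in Handling, Restraint, Swim and Homecage mice for the 17 genes called between the regions in Homecage mice. Homecage diamonds lie furthest out for most genes, while the Swim triangles of Lsm4, Snrpa and Snrpc lie above 0 (that of Lsm4 is at -0.04 with the GC trend subtracted) and Hnrnpm and Lsm8 remain below -0.2 in all 4 conditions.

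Of 10 kinase and phosphorylation genes, 2 fell in ventral Swim, where 2.29% of all genes fell and 0 of 11 SR genes were called. Clk1 had 2020 estimated counts in Swim mice, against 2853 in Homecage mice, with a log2 fold change of -0.47 and an adjusted p of 1.9e-09 in the authors' deposited table. Clk4 had 1297 in Swim, against 1605 in Homecage, with -0.27 and an adjusted p of 0.0034. With the GC trend subtracted the adjusted p was 1.0e-04 for Clk1 and 0.426 for Clk4. In whole Swim, Clk1 had -0.68 and Clk4 -0.49, with adjusted p-values of 0.196 and 0.819, and in dorsal Swim Clk1 had -0.29 with 0.186, or 0.0162 after the GC trend was subtracted. Clk2, Clk3, Srpk1 and Srpk2 were not called after any treatment. Between regions in Homecage mice, Srpk2 was higher in ventral hippocampus (0.21) and Clk3 (-0.23) and Clk2 (-0.18) were lower. These 3 of 10 stand beside 38.4% of all genes called there. With the GC trend subtracted none of the 3 kept its call, with adjusted p-values between 0.144 for Srpk2 and 0.605 for Clk2. Another 1 of the 10 genes was then called, lower in ventral hippocampus.

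The promoters of these genes, 250 bases before to 50 after the start in RefSeq on GRCm38.p6, were found for 48 of the 55. They were rich in GC, with a median of 61.5% against 52.7% for all 27025 promoters, and in CpG dinucleotides, with a median of 26 against 7. The GC box GGGCGG was present on either strand in 77.1% of them and in 35.9% of all promoters, and the ETS core CCGGAAG in 22.9% and 9.12%. The full cyclic AMP response element, the site of the activity-regulated factor CREB, is TGACGTCA and was present in 2 of 48, Snrpa and Snrpg, or 4.17%, against 1.88% of all promoters. The TATA box TATAAA was present in 10.4% and 14.2%. These are matches of letters in a window and say nothing of binding. The 27025 promoters were not limited to genes measured in these hippocampal libraries, while the 55 genes were all measured there.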

How the data were processed

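Poly(A)-selected libraries of 60 hippocampal samples, 12 groups of 5, were sequenced on an Illumina HiSeq4000, per the labels and the series record. The authors deposited 10 tables, each comparing 2 groups, with mean estimated counts, a fold ratio, a log2 fold change, a p-value and an adjusted p-value per gene. Per the submitters' processing notes Bowtie 0.12.2 and mm8 were used; their role is not stated there, and counting, scaling and test were not given in the sources used here. Deposited counts summed to 19918572 to 25007858 per group mean. The adjusted p equalled a Benjamini-Hochberg correction over each table. Hnrnpa1 is listed more than once per table with equal values and was counted once.

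An implied standard error was computed as the size of the log2 fold change over the normal quantile of its p-value. It is approximate. Differences between tissues were tested by the difference over the root of the summed squared errors against a normal distribution, adjusted over all genes. This treats the tissues as independent, and pairing of dorsal and ventral pieces of a mouse could not be modelled. The step was tested on simulated data drawn as independent normal values with these errors. That simulation could not check those assumptions or the authors' test. The implied error was taken to reflect the spread between libraries, which may be technical, since the authors' test is unknown. Levels are counts per 1000000 of the table total (CPM), also per kilobase of the median length of protein-coding transcripts (GENCODE M21). GC and length trends were lowess fits over all genes (fraction 0.3). Alternatives were adjusted p under 0.1 or 0.01, GC or length trend subtracted, total-count scaling and a mean of at least 100. Named genes were those past adjusted p 0.05 in any table or between tissues, the 4 highest and 4 lowest per table, those of highest and lowest level per family, kinases and treatment checks, and pathway genes past 0.05, up to 4 per table and direction; values in the text are given for part of them. Ratios of ventral to dorsal means in treated mice and of whole hippocampus to its parts were added after seeing the data. The genes and lists were chosen with earlier results of these data known. Python 3.11.15, pandas 2.3.3, scipy 1.17.1, statsmodels 0.14.6 and matplotlib 3.10.9 were used.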

Additional observations from a re-analysis of the deposited data

Results flagged for a closer look

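By a test of the difference itself, the response to Swim differed between ventral and dorsal hippocampus for 4 of the 55 genes. Of all genes 10.2% differed. Lsm4 had a log2 fold change of 0.33 in ventral and -0.31 in dorsal hippocampus, a difference of 0.64. For Snrpa and Snrpc, both U1 snRNP genes, the ventral minus dorsal differences were 0.51 and 0.47. Hnrnpu had -0.18 in ventral and 0.14 in dorsal hippocampus, a difference of -0.31. In the GC content of their transcripts the first 3 genes stand at 53.1% to 60.8% and Hnrnpu at 40.9%, and with the GC trend of all genes subtracted none of the 4 differences passed the test (adjusted p 0.334 to 1.00).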

How the results depend on the processing

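The count of called genes kept within 1.5 times its value in all 10 tables and in all 9 tissue differences under length-trend subtraction and total-count scaling. In whole Handling it was 0 at a mean of at least 100, because Lsm7 itself has a lower mean. In ventral Handling it was 1 at adjusted p under 0.1, Lsm7. In ventral Swim it was 0 at adjusted p under 0.01 and 0 with the GC trend subtracted. For the tissue differences, Restraint in ventral minus dorsal hippocampus gave 1 at adjusted p under 0.1 and 1 at a mean of at least 100. Swim in ventral minus dorsal gave 9 at adjusted p under 0.1 and 0 with the GC trend subtracted. At adjusted p under 0.05 it gave 4, where 10.2% of all genes were called. The shares of all genes at adjusted p under 0.1 and at a mean of at least 100 are not given here. Counts at those settings therefore have no background beside them. Of 24 named fold changes with a call, 10 kept it with the GC trend subtracted and 14 lost it, and among the uncalled ones Lsm5 in ventral Swim changed sign, to 0.0064. Length subtraction ended 2 calls and total-count scaling 3. The cause was not tested. Total-count scaling moved log2 values by at most 0.041. No paired analysis was possible because the deposited tables hold group means only, and leaving out single libraries was not run for the same reason, so a call that rests on 1 library cannot be seen. Low counts limit Lsm7, Lsm5 and Lsm2.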

Other observations

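Genes that work with these factors were read from lists chosen with earlier results known. In whole and dorsal hippocampus none of the 7 lists (SR kinases, SR-related and exon junction genes, other snRNP and spliceosome genes, snRNP assembly, other splicing regulators, nonsense-mediated decay and partners of the Lsm ring in mRNA decay) held a call after any treatment. After ventral Restraint the neuronal RNA-binding genes Elavl4 and Nova1 fell, both by 0.24 on the log2 scale. Their adjusted p-values were 0.0158 and 0.0382 in the authors' deposited table, where 0.916% of all genes fell. With the GC trend subtracted neither kept its call, with adjusted p-values of 0.180 and 0.277. After ventral Swim, where 4.65% of all genes rose and 2.29% fell, 3 of 54 spliceosome genes rose, among them the U1 gene Snrnp70, with 4271 estimated counts in Swim, against 3843 in Homecage (log2 0.19, adjusted p 0.0139), and the branch point binding gene Sf1 (0.14). Of 39 other splicing regulators 3 rose (Celf3, Ptbp1, Celf5) and 4 fell (Ptbp2, Matr3, Elavl4, Syncrip). Gemin4, part of the SMN complex that loads Sm rings, had 70.2 in Swim, against 129.7 in Homecage (log2 -0.86, adjusted p 0.0204). With the GC trend subtracted, of these lists Clk1 alone kept a call in ventral Swim.

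Between regions of Homecage mice 4 of the 39 splicing regulators were higher and 7 lower in ventral hippocampus, or 28.2% called, beside 30.9% of the 55 genes and 38.4% of all genes. Elavl4, which binds AU-rich and alternatively spliced transcripts in neurons, had 1925 estimated counts in ventral and 872 in dorsal hippocampus, a log2 fold change of 1.00 with an adjusted p of 6.8e-39. Its relative Elavl2 had 0.47, and Srrm4, an SR-related gene which promotes neuronal microexons, had 0.44. Rbfox1 and Rbfox3, neuronal regulators that bind UGCAUG, were lower in ventral hippocampus, at -0.68 and -0.60, with adjusted p-values of 1.4e-32 and 1.1e-18. Of the spliceosome list 14 of 54 were lower and 1 was higher. Among the lower ones were Cdc40, a second-step splicing factor, at -0.59, and Snrnp70 at -0.37. Over all genes 20.0% were lower and 18.4% higher.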
